A study of Mus musculus with 15 samples.

Results

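The miR-126 rows are the mature microRNAs (miRNAs) cut from the Mir126a and Mir126b hairpins. They were taken by name, as every row of the deposited table that starts with mmu-miR-126a or mmu-miR-126b. The rule found 4 of 1424 rows, namely mmu-miR-126a-3p, mmu-miR-126a-5p, mmu-miR-126b-3p and mmu-miR-126b-5p (mmu for mouse, left off from here on), and all 4 were among the 818 that passed the filter on low values. Small RNA was sequenced from whole lungs of C57BL/6 mice that were WT or homozygous for the R213G form of EC-SOD, the superoxide dismutase of the extracellular space, a variant that holds less well to the tissue matrix. The groups were R213G bleomycin (n = 4), R213G PBS (n = 4), WT bleomycin (n = 4) and WT PBS (n = 3), and the labels give an age of 11 weeks for each mouse. The labels also give a range of 8 to 12 weeks for the age at treatment in every group. Bleomycin, a DNA-damaging drug that injures the lung, was instilled into the trachea once, as 100 uL at 1 U/mL, and control mice received PBS, a buffered salt solution. On day 7 the lungs were taken, after a flush of 10 mL PBS from the right ventricle. Both sexes were used, and no label says which mouse was which.

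MiR-126 is known as the most characteristic miRNA of endothelial cells, and it is also found in platelets and blood progenitors. It lies in an intron of Egfl7, a gene of a protein that endothelial cells secrete. Its 3p strand represses Spred1 and Pik3r2, brakes on the signal that vascular endothelial growth factor sends, and mice without it have leaky vessels. The 5p strand represses Dlk1, an inhibitor of Notch signalling, and so favours endothelial proliferation. No messenger RNA was measured here, so the endothelial label of miR-126 could not be set against endothelial genes. In whole lung, fewer endothelial cells and less miR-126 per cell cannot be told apart.

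The sequences are shown because the 4 rows come from 1 stretch of DNA that is annotated on both strands. RefSeq (GRCm38.p6) places Mir126a at chr2:26591357-26591429 on the plus strand and Mir126b at chr2:26591363-26591420 on the minus strand. In GENCODE M21 (GRCm38), 9 Egfl7 transcripts span the site, which is intronic in 8 and exonic in 1, a retained-intron transcript. The Mir126b hairpin is the exact reverse complement of bases 7 to 64 of the Mir126a hairpin, counted from its 5′ end. In the Mir126a hairpin, printed from RefSeq, the first run of capitals marks bases 7 to 29, complementary to all 23 bases of miR-126b-3p, and the second marks miR-126a-3p, bases 46 to 67.
Mir126a hairpin: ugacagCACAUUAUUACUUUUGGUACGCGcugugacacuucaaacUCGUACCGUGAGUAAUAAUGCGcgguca

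A mature sequence was matched in RefSeq for 3 of the 4 rows. They show which strand of 1 hairpin faces which strand of the other. Capitals mark the seed, bases 2 to 8, which a miRNA uses to find its targets.
miR-126a-3p: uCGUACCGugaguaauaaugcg
miR-126b-5p: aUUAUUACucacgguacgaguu
miR-126b-3p: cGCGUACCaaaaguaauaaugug

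No 2 of these seeds are the same. Those of miR-126a-3p and miR-126b-3p share a run of 6 bases, CGUACC, shifted by position. Of the bases of miR-126a-3p, 19 are complementary to miR-126b-5p, so a read of one could be taken for the other if strand were not used in counting. The 5p arm of the Mir126a hairpin faces miR-126b-3p in the same way. No source used here says whether the authors counted by strand.

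Values are the deposited log2 values, taken as log2 of 1 plus a scaled value. RPKM stands in the table's name, but no source used here describes the unit or says whether length was divided out, so levels of different miRNAs are compared only as listed. Linear values summed to between 18100000 and 21100000 in R213G bleomycin libraries and between 21800000 and 23200000 in R213G PBS libraries. In WT they summed to between 19100000 and 21200000 after bleomycin and between 20700000 and 24800000 after PBS. These sums do not show read depth, which is unknown. Differences were tested with limma over all 818 miRNAs, and a Benjamini-Hochberg adjusted p under 0.05 counted as passing.

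The strand that carries most of the known activity, miR-126a-3p, was among the most abundant miRNAs of every library. It ranked between 8 and 13 of 1424 and made up 2.14% to 3.15% of the library sum. By the same measure miR-126a-5p ranked between 9 and 13 and made up 1.66% to 3.03%. The table lists miR-126b-3p at nearly the same level as miR-126a-5p, at 1.66% to 3.04% of the sum. Far below them, miR-126b-5p ranked between 149 and 171, with 0.00920% to 0.0141%.

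In R213G lungs, miR-126a-3p and miR-126b-5p fell after bleomycin on the deposited scaling, while miR-126a-5p and miR-126b-3p did not pass. The log2 values of miR-126a-3p were 19.20, 18.81, 19.15 and 18.56 in R213G bleomycin lungs, against 19.35, 19.40, 19.31 and 19.27 in R213G PBS lungs. Every R213G bleomycin library lay below every R213G PBS library, and replicates 2 and 4 were the lowest. The log2 difference was -0.41 ± 0.13 (SE, limma adjusted p = 0.0188). The log2 values of miR-126b-5p were 10.78, 11.01, 11.04 and 10.83 in R213G bleomycin lungs, against 11.13, 11.53, 11.08 and 11.40 in R213G PBS lungs. Again the groups did not overlap, with a log2 difference of -0.37 ± 0.13 (SE, limma adjusted p = 0.0307). The share of all tested miRNAs whose R213G groups separated in this way is not given here. Separation therefore does not set these 2 rows apart from other miRNAs. Of all 818 tested miRNAs 42.1% passed in this comparison, 19.8% falling and 22.2% rising. With 4 rows, 2 of them falling is a small count to set against that share. By the parametric test of the authors' deposited table, 0 of the 4 rows had a q-value under 0.05 here, and 1 of 4 had a p under 0.05. The share of all miRNAs under these limits in the authors' test is not given here.

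The 5p strand did not pass. Log2 values of miR-126a-5p were 19.14, 18.69, 18.92 and 18.70 in R213G bleomycin lungs, against 18.56, 18.92, 18.64 and 18.74 in R213G PBS lungs. These groups overlapped, and the log2 difference of 0.15 ± 0.12 (SE, limma adjusted p = 0.327) missed the threshold. For miR-126b-3p it was 0.14 ± 0.12 (SE, limma adjusted p = 0.344).

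In WT lungs none of the 4 rows passed, by limma or by the authors' deposited q-values, and 0 of 4 had an unadjusted limma p under 0.05. Of all tested miRNAs 26.7% passed in that comparison, 16.4% rising and 10.3% falling. Log2 values of miR-126a-3p were 19.09, 19.11, 19.24 and 19.16 in WT bleomycin lungs, against 19.35, 19.50 and 18.99 in WT PBS lungs. The bleomycin values lay within the range of the WT PBS values, where replicate 3 was the lowest, and the log2 difference was -0.13 ± 0.14 (SE, limma adjusted p = 0.528). Log2 values of miR-126a-5p were 18.95, 18.97, 18.84 and 18.92 in WT bleomycin lungs, against 18.62, 18.92 and 18.46 in WT PBS lungs. That difference was 0.26 ± 0.13 (SE, limma adjusted p = 0.148), with 1 PBS library inside the range of the bleomycin libraries. For miR-126b-3p it was 0.26 ± 0.13 (SE, limma adjusted p = 0.153). For miR-126b-5p, WT bleomycin lungs ranged from 10.90 to 11.40 and WT PBS lungs from 11.01 to 11.28, with a log2 difference of -0.04 ± 0.14 (SE, limma adjusted p = 0.868).

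No difference between genotypes passed for any of the 4 rows. After bleomycin, the R213G minus WT difference of miR-126a-3p was -0.22 log2 (95% CI -0.50 to 0.05, limma adjusted p = 0.524), and after PBS it was 0.05 log2 (95% CI -0.24 to 0.35, limma adjusted p = 0.992). The genotype by bleomycin interaction of miR-126a-3p was -0.28 log2 (95% CI -0.68 to 0.12, limma adjusted p = 0.708), so the R213G response is not shown to differ from the WT response. For miR-126a-5p the difference was -0.06 log2 after bleomycin (95% CI -0.31 to 0.19) and 0.05 after PBS (95% CI -0.22 to 0.32). For miR-126b-5p it was -0.21 after bleomycin (95% CI -0.49 to 0.06) and 0.12 after PBS (95% CI -0.18 to 0.42). The signs of these small differences changed with the scaling for some rows. Of the 4 rows, 0 passed in these contrasts by limma, and 0 had an unadjusted limma p under 0.05. The share passing over all 818 miRNAs was 0% in each. The authors' deposited q-values called 0 of the 4 rows in either genotype comparison. The tag numbers in the library names of R213G and WT do not overlap, so genotype and whatever goes with the tags cannot be told apart. Within WT, all bleomycin tags come before all PBS tags, and there too the tags and the treatment cannot be told apart.

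Ordered by group mean on the deposited log2 scale, miR-126a-3p was highest in R213G PBS lungs at 19.33 ± 0.05 (SD, n = 4), then WT PBS at 19.28 ± 0.26 (SD, n = 3), WT bleomycin at 19.15 ± 0.07 (SD, n = 4) and R213G bleomycin at 18.93 ± 0.30 (SD, n = 4). The ranges of WT PBS and WT bleomycin overlapped, as did those of the 2 PBS groups and of the 2 bleomycin groups. For miR-126a-5p the order was WT bleomycin (18.92 ± 0.05), R213G bleomycin (18.86 ± 0.21), R213G PBS (18.71 ± 0.16) and WT PBS (18.66 ± 0.23), all SD with the same n, and each neighbouring pair overlapped.

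**Figure D1:**
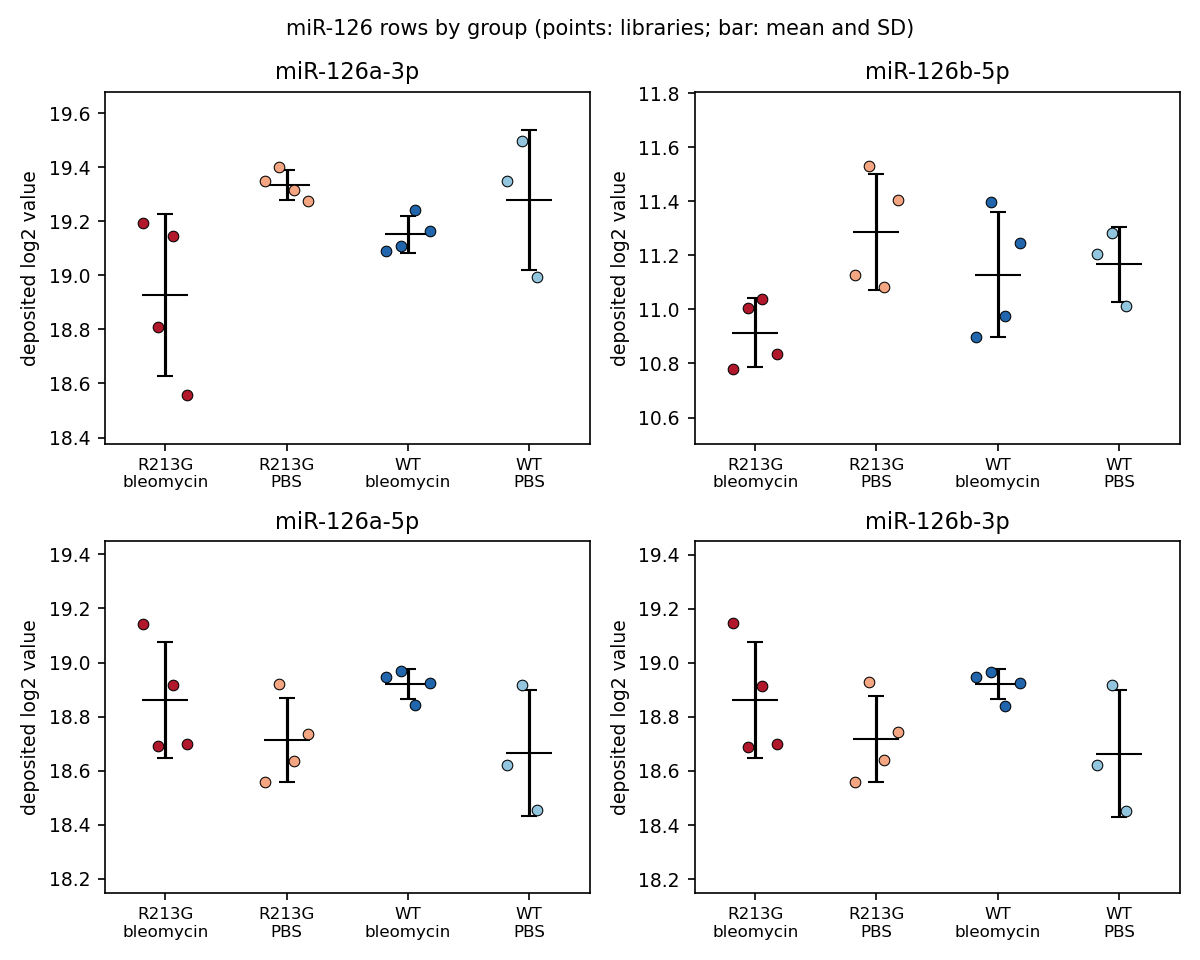
Deposited log2 values of the 4 miR-126 rows in each library (points) by group, with the group mean and SD (bars); every panel spans the same height in log2 units. The panels of miR-126a-5p and miR-126b-3p look alike point by point, and the R213G bleomycin libraries lie below the R213G PBS libraries in the panels of miR-126a-3p and miR-126b-5p.

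Within the R213G lungs the tag numbers form an earlier and a later run of 4, with 2 bleomycin and 2 PBS libraries in each. In the earlier run miR-126a-3p averaged 19.17 in bleomycin and 19.33 in PBS lungs on the deposited scale, a log2 difference of -0.16. In the later run it averaged 18.68 in bleomycin and 19.34 in PBS lungs, a difference of -0.65. The larger part of the fall thus came from R213G bleomycin replicates 2 and 4, and without replicate 4 the call was lost (-0.28 log2, limma adjusted p = 0.073). For miR-126b-5p these differences were -0.20 and -0.55, and its call was lost without R213G bleomycin replicate 1 or 4, or without R213G PBS replicate 2 or 4 (-0.34 to -0.29 log2, limma adjusted p = 0.0773 to 0.109). With a term for the tag run the fall of miR-126a-3p passed (-0.41 log2, limma adjusted p = 0.0109), as did that of miR-126b-5p (-0.37, limma adjusted p = 0.0241).

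The scaling decided which strand appeared to change. In R213G lungs the log2 difference of miR-126a-3p was -0.54 with equal library medians (limma adjusted p = 0.0117), but -0.09 with quantile normalization (limma adjusted p = 0.506) and -0.19 after division by the library sum (limma adjusted p = 0.125). In WT lungs its difference was -0.24 with equal medians, and it turned to 0.10 with quantile normalization and 0.04 after division by the library sum, none of which passed (limma adjusted p = 0.318, 0.501 and 0.805). The scalings also moved the median of all tested miRNAs. In R213G it was 0.05 log2 as deposited, -0.08 with equal medians, -0.03 with quantile normalization and 0.27 after division by the library sum. In WT it was 0.05, -0.07, -0.04 and 0.21 in the same order. With equal medians 24.3% fell and 18.1% rose in R213G, and 14.8% fell and 13.4% rose in WT. With quantile normalization these were 21.1% and 19.8% in R213G and 13.2% and 13.9% in WT. After division by the library sum 9.66% fell and 28.9% rose in R213G, and 4.77% fell and 23.2% rose in WT.

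For miR-126a-5p the picture was turned round. After division by the library sum it rose in R213G lungs, by 0.36 log2 (limma adjusted p = 0.0124), and in WT lungs, by 0.43 log2 (limma adjusted p = 0.0102). Under that scaling the median of all tested miRNAs stood at 0.27 in R213G and 0.21 in WT. As a share of the library sum it averaged 2.49% ± 0.36 in R213G bleomycin against 1.93% ± 0.23 in R213G PBS (SD, n = 4 each). In WT lungs it was 2.47% ± 0.19 (SD, n = 4) after bleomycin and 1.83% ± 0.14 (SD, n = 3) after PBS. With equal medians its differences were 0.02 in R213G and 0.14 in WT, and with quantile normalization 0.15 and 0.07, and none of these 4 passed (limma adjusted p = 0.941, 0.55, 0.157 and 0.634). Every R213G bleomycin sum lay below every R213G PBS sum, so dividing by the sum raised the bleomycin values.

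The scarce miR-126b-5p behaved otherwise under quantile normalization, which left its fall in R213G lungs at -0.51 log2 (limma adjusted p = 0.00343). With equal medians it fell too (-0.50 log2, limma adjusted p = 0.00973), while after division by the library sum the difference of -0.16 did not pass (limma adjusted p = 0.374). Quantile normalization replaces a value by the mean over libraries at its rank. Since miR-126a-3p held rank 9 in every PBS library of either genotype, it was given 19.15 in all 7 of them, and 19.29, 18.97, 19.29 and 18.70 in the R213G bleomycin libraries. The same step pulled apart miR-126a-5p and miR-126b-3p. They differed by at most 0.00753 log2 in any library as deposited, and by 0.0601 to 0.242 log2 afterwards.

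**Figure D2:**
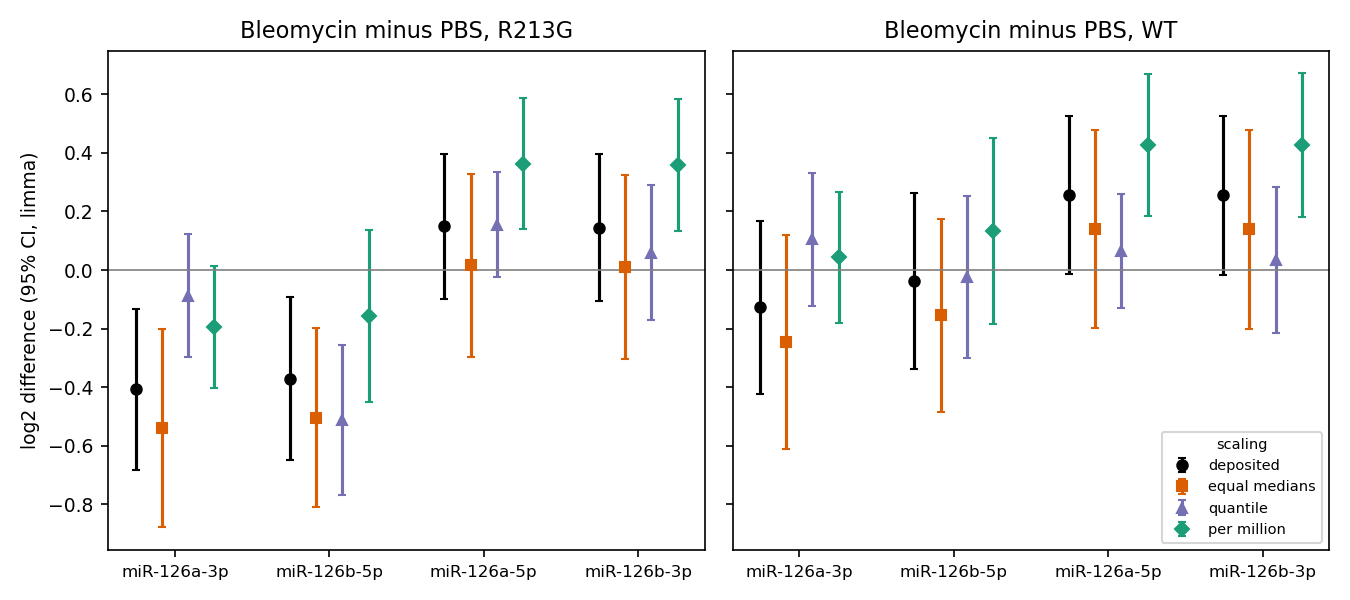
Bleomycin minus PBS log2 differences of each miR-126 row with 95% confidence intervals (limma), in R213G lungs (left) and WT lungs (right), under 4 scalings of the libraries. In R213G the difference of miR-126a-3p runs from -0.54 (equal medians) to -0.09 (quantile), and that of miR-126a-5p from 0.02 (equal medians) to 0.36 (divided by the library sum).

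A ratio of 2 rows within a library does not change with a factor that scales the whole library. As deposited, the ratio of miR-126a-5p to miR-126a-3p was higher in every bleomycin library than in every PBS library of the same genotype. As log2 values it was -0.05, -0.12, -0.23 and 0.14 in R213G bleomycin lungs, against -0.79, -0.48, -0.68 and -0.54 in R213G PBS lungs. In WT it was -0.14, -0.14, -0.40 and -0.24 in bleomycin lungs, against -0.73, -0.58 and -0.54 in PBS lungs. The 3p strand was the higher of the pair in every library but R213G bleomycin replicate 4. The 5p row thus stood at 0.960 ± 0.105 of the 3p row in R213G bleomycin and at 0.652 ± 0.062 in R213G PBS (SD, n = 4 each). In WT these were 0.854 ± 0.069 (SD, n = 4) after bleomycin and 0.654 ± 0.045 (SD, n = 3) after PBS.

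The difference in this log2 ratio was 0.56 in R213G lungs (two-sided exact permutation p = 0.0286) and 0.38 in WT lungs (two-sided exact permutation p = 0.0571). Each is the smallest p that 4 against 4 or 4 against 3 libraries allow. Adjusted over the 12 ratio tests these exact permutation p-values were 0.171 and 0.229. With groups this small no adjusted p over the 12 tests could fall under 0.05, whatever the values. The adjusted p-values thus cannot decide whether the ratio changed. Within the R213G tag runs the difference was 0.59 in the earlier and 0.52 in the later, so it was not limited to 1 of them.

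Between genotypes the ratio of miR-126a-5p to miR-126a-3p differed by 0.17 log2 after bleomycin (95% CI -0.09 to 0.42) and by -0.01 after PBS (95% CI -0.28 to 0.27). The corresponding exact permutation p-values were 0.114 and 1. The R213G change exceeded the WT change by 0.17 log2 (95% CI -0.20 to 0.55, limma adjusted p = 0.798).

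**Figure D3:**
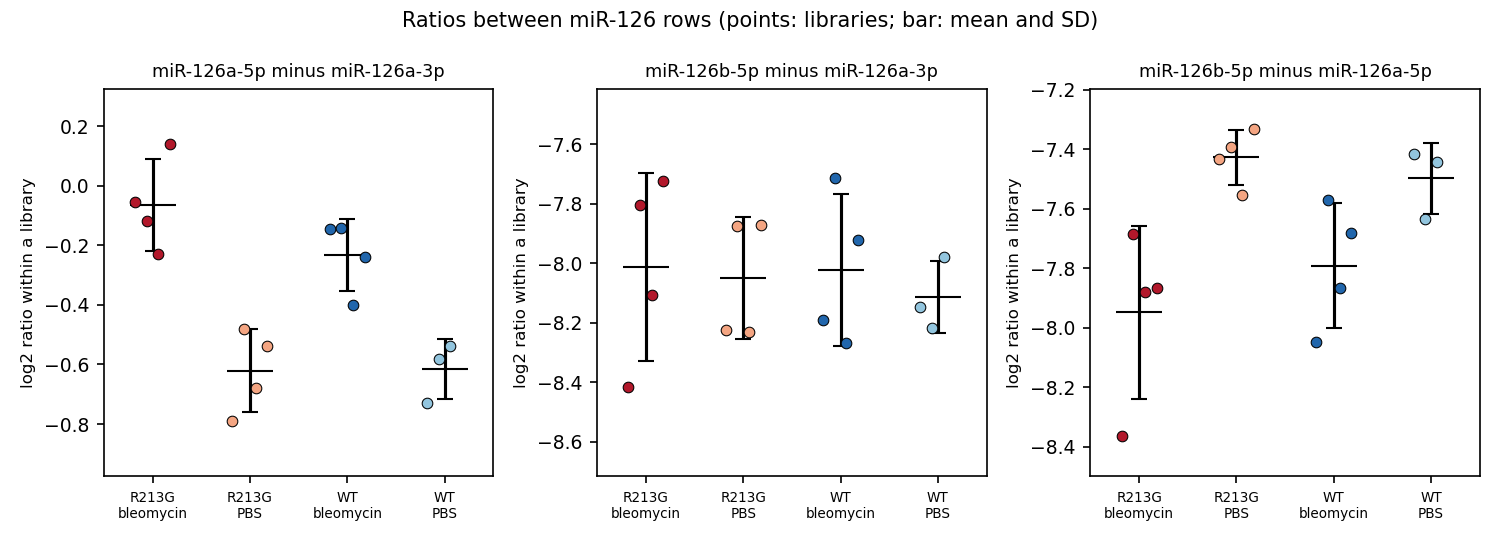
Log2 ratios between miR-126 rows within each library (points) by group, with the group mean and SD (bars); every panel spans the same height in log2 units. As deposited, for miR-126a-5p over miR-126a-3p all bleomycin libraries lie above all PBS libraries of their genotype (under quantile normalization the WT difference is -0.04), and for miR-126b-5p over miR-126a-3p the groups overlap.

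Shifts of this kind were common in these lungs. To set the ratio beside others, the 5p to 3p log2 ratio of all 234 hairpins with both strands tested was fitted with limma, a step added after the data were seen. In R213G lungs the miR-126a ratio rose by 0.56 ± 0.12 (SE, limma adjusted p = 0.00517), and 25.6% of the hairpins passed. In WT lungs its difference of 0.38 ± 0.13 (SE, limma adjusted p = 0.108) did not pass, while 7.26% of hairpins did. Quantile normalization, which works on ranks, ended the R213G call (0.24, limma adjusted p = 0.2) and turned the WT difference to -0.04. The ratio's bleomycin and PBS groups did not overlap in 29.5% of hairpins in R213G, in 19.7% in WT, and in the same direction in both for 8.97%, miR-126a among them. Counting miR-126a itself, 85 hairpins changed by at least as much in R213G and 101 in WT. Of the 72 hairpins with both strand means above log2 8, 21 did so in each genotype.

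**Figure D4:**
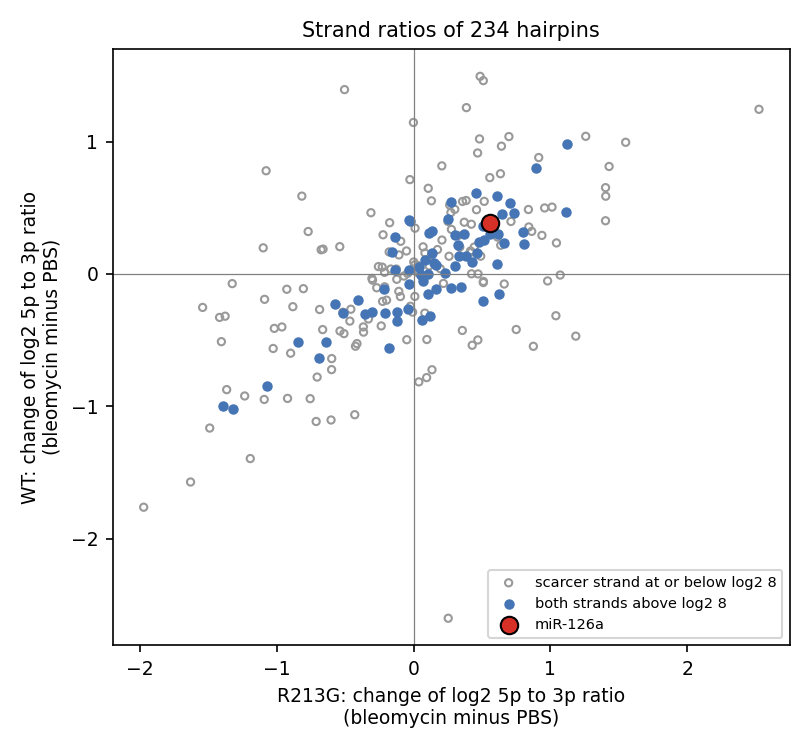
Bleomycin minus PBS change of the log2 5p to 3p ratio in R213G lungs (horizontal) and in WT lungs (vertical) for 234 hairpins, with miR-126a in red, hairpins with both strand means above log2 8 in blue and the others as open circles. The miR-126a point, at 0.56 and 0.38, lies inside the cloud of the other hairpins.

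Of the antisense rows, miR-126b-3p tracked the strand it faces. Over the 15 libraries miR-126b-3p differed from miR-126a-5p by between 0.000101 and 0.00753 log2, higher in 7 and lower in 8. The log2 ratio of miR-126b-5p to miR-126a-3p, which are complementary over 19 bases, had overlapping groups in both genotypes. Its SD over the 15 libraries was 0.218, beside 0.219 for miR-126b-5p alone and 0.240 for miR-126a-3p alone. Rows that varied independently would give a ratio with a larger SD than either row. The pair thus moved together in part, but far less closely than miR-126b-3p with miR-126a-5p. This was not particular to the pair. By this SD miR-126b-5p came only at place 51 among the 817 other tested miRNAs. The ratio averaged -8.01 ± 0.32 in R213G bleomycin against -8.05 ± 0.21 in R213G PBS (SD, n = 4 each), a difference of 0.04 (exact permutation p = 0.857). In WT it averaged -8.02 ± 0.25 (SD, n = 4) after bleomycin against -8.11 ± 0.12 (SD, n = 3) after PBS, a difference of 0.09 (exact permutation p = 0.629). With quantile normalization these differences became -0.43 in R213G and -0.13 in WT. Against miR-126a-5p, miR-126b-5p was lower after bleomycin. The log2 differences were -0.52 in R213G (exact permutation p = 0.0286, groups apart) and -0.29 in WT (exact permutation p = 0.114). Adjusted over the 12 tests these exact permutation p-values were 0.171 and 0.274, where none could pass.

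Without strand, reads of miR-126a-5p and miR-126b-3p cannot be told apart, and those of miR-126a-3p and miR-126b-5p only in part. If the near-equal rows were added as 1 quantity, the 5p side of the hairpin would exceed miR-126a-3p in every library. The log2 ratio would then be 0.94 ± 0.16 in R213G bleomycin against 0.38 ± 0.14 in R213G PBS (SD, n = 4 each). In WT it would be 0.77 ± 0.12 (SD, n = 4) after bleomycin and 0.38 ± 0.10 (SD, n = 3) after PBS. So which strand of miR-126a is the more abundant depends on this choice. As the added rows are nearly equal, adding them leaves the difference between bleomycin and PBS as it was by construction.

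The miRNAs most like miR-126a-3p were those whose log2 ratio to it had the smallest SD over the 15 libraries. They were miR-194-5p (SD 0.0923), miR-30c-5p (0.0958), miR-30b-5p (0.114), miR-30d-3p (0.121) and miR-27a-3p (0.123). The median SD over all 817 other tested miRNAs was 0.51, and 0.237 over the 41 with a mean above log2 16. Its own partner miR-126a-5p came only at place 128 (SD 0.277), and miR-126b-5p at place 51 (SD 0.218). Because they were chosen for a constant ratio to miR-126a-3p in these libraries, their differences follow its own by that choice and are given only as values. On the deposited scaling the bleomycin minus PBS log2 difference in R213G lungs was -0.39 for miR-194-5p, known from liver and gut epithelium, and -0.49 for miR-27a-3p, a miRNA of vessels and many other cells. For the miR-30 family members it was -0.29 (miR-30c-5p), -0.31 (miR-30b-5p) and -0.47 (miR-30d-3p). In WT lungs the 5 differences lay between -0.34 and -0.20.

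Other miRNAs with a described part in vessels went both ways. Of 15 such miRNAs beside miR-126, 3 rose and 4 fell in R213G lungs, leaving 8 that did not pass. That is 7 of 15, where 42.1% of all tested miRNAs passed. In WT lungs 2 rose and 2 fell, leaving 11, or 4 of 15 where 26.7% of all passed. The balance turned with the scaling. In R213G 3 rose and 6 fell with equal medians, 5 rose and 1 fell with quantile normalization, and 4 rose and 2 fell after division by the library sum. In WT these were 2 and 5, 3 and 1, and 4 and 1 in the same order. Their median log2 difference was -0.06 in R213G and -0.15 in WT, beside 0.05 over all tested miRNAs in each, and it turned to 0.16 and 0.023 after division by the library sum and to 0.041 and 0.039 with quantile normalization. The strongest, miR-132-3p, which CREB induces and which promotes vessel sprouting, rose by 1.60 log2 in R213G (limma adjusted p = 1.55e-07) and by 1.73 in WT (limma adjusted p = 1.61e-07). Its rise passed under every scaling run. In R213G miR-92a-3p, a brake on vessel growth, fell by 0.62 log2 (limma adjusted p = 0.000709), and by 0.40 to 0.75 log2 under the other scalings. In both genotypes miR-218-5p, linked to Slit and Robo guidance of vessels, rose by 0.47 log2 (limma adjusted p = 0.00177 in R213G and 0.00393 in WT). In WT miR-10a-5p and miR-10b-5p, which act in endothelial inflammation and sprouting, fell by 0.57 and 0.78 log2 (limma adjusted p = 0.00194 and 0.0142). Both fell in R213G too (-0.40 and -0.63 log2, limma adjusted p = 0.00795 and 0.0205). The WT fall of miR-10a-5p passed under each scaling but was -0.16 log2 with quantile normalization (limma adjusted p = 0.023). The WT call of miR-10b-5p was lost with quantile normalization (-0.53, limma adjusted p = 0.0642) and after division by the library sum (-0.61, adjusted p = 0.0657). In R213G both passed with equal medians (-0.54 and -0.76). Neither passed there with quantile normalization (0.041 and -0.44, limma adjusted p = 0.502 and 0.0769). After division by the library sum neither did (-0.19 and -0.41, limma adjusted p = 0.0524 and 0.141). Between genotypes 0 of the 15 passed by limma, with 3 after bleomycin and 1 after PBS at an unadjusted p under 0.05. The share of all tested miRNAs at that unadjusted p is not given here, so these counts are not read as a trait of the list.

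Markers of other cells also moved, and their part in the miR-126 differences was not tested. All listed markers are in the table, and none was at 0 throughout a group. Their counts on the deposited scaling stand beside 22.2% of all tested miRNAs rising and 19.8% falling in R213G, and 16.4% rising and 10.3% falling in WT. The 5 epithelial miR-200 family members summed to 1.31% to 1.47% of the library sum in R213G bleomycin against 1.39% to 1.53% in R213G PBS, and 3 fell on the deposited scaling. In WT they summed to 1.29% to 1.51% after bleomycin against 1.30% to 1.48% after PBS, and 1 fell. The 2 smooth muscle miRNAs summed to 12.3% to 14.5% in R213G bleomycin against 13.4% to 15.4% in R213G PBS, and to 13.2% to 14.9% in WT bleomycin against 14.3% to 16.03% in WT PBS, and 1 fell in each genotype. These sums overlapped between bleomycin and PBS in both genotypes.

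The miRNAs of blood cells and heart muscle differed more. The 4 red cell miRNAs summed to 0.225% to 0.724% in R213G bleomycin against 0.356% to 1.03% in R213G PBS, and to 0.122% to 0.173% in WT bleomycin against 0.377% to 1.09% in WT PBS. Of these 2 fell in R213G and 3 in WT. The 4 leukocyte miRNAs summed to 0.675% to 0.977% in WT bleomycin against 0.515% to 0.63% in WT PBS, where 2 rose. In R213G they summed to 0.657% to 0.869% after bleomycin against 0.72% to 0.786% after PBS, where 1 rose and 1 fell. The 5 heart muscle miRNAs summed to 0.0232% to 0.05% in R213G bleomycin against 0.1% to 0.136% in R213G PBS, and 3 fell. In WT they summed to 0.0449% to 0.0715% after bleomycin against 0.0675% to 0.395% after PBS, and 2 fell. The bleomycin and PBS sums did not overlap for red cell and leukocyte miRNAs in WT and for heart muscle miRNAs in R213G. Under each of the other 3 scalings the red cell counts were again 2 and 3, while the epithelial falls in R213G numbered 1 to 4. With quantile normalization 1 epithelial miRNA rose in R213G and 1 fell. No smooth muscle fall passed in either genotype with quantile normalization or after division by the library sum, and 1 in R213G and 2 in WT did with equal medians. The leukocyte rises in WT again numbered 2 under each. In R213G 1 leukocyte miRNA rose and 1 fell with equal medians. There 2 rose and 0 fell with quantile normalization, and 2 rose and 1 fell after division by the library sum. The heart muscle falls numbered 2 to 4 in R213G and 1 to 2 in WT.

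The 20 most abundant tested miRNAs, with miR-126a-3p, miR-126a-5p and miR-126b-3p among them, give the differences of the abundance class that miR-126a belongs to. In R213G lungs 15 of the 20 had a negative log2 difference, with a median of -0.20, and in WT 12 of 20 with a median of -0.08. After division by the library sum their medians were 0.01 and 0.09, and with quantile normalization -0.05 and -0.04. In R213G lungs miR-126a-3p, at -0.41 log2 on the deposited scaling, thus lay below the median of its abundance class, and miR-126a-5p, at 0.15, above it.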

How the data were processed

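The labels' protocols give RNA isolated from pulverized whole lung with the miRNeasy kit and libraries made by Illumina protocols. Bowtie2 2.3.2, SAMtools 1.9 and edgeR are named in the submitters' processing notes, without roles. The genome build, the miRBase release, the handling of reads that match several miRNAs and the use of strand were not found in the sources used here. The deposited table holds log2 values per library, the authors' log2 fold changes, which equal differences of group means within 7.17e-09, and the authors' p-values and q-values. Counts could not be recovered, so no count test was run, and no counting interval was computed.

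Columns were matched to samples by the names in the labels. The filter kept rows with a linear value above 5 in at least 3 libraries. All 15 libraries entered 1 fit in limma 3.58.1 (R 4.3.3), with a mean for each of the 4 groups and the prior variance following abundance. Strand ratios were tested by exact permutation (scipy 1.17.1), and over all hairpins by limma with a constant prior. The procedures were tested on simulated data with changes placed in R213G bleomycin. Of changes in level, limma recovered 74% at 1 log2 and 31% at 0.5 log2, and 6.25% of its calls were false. For strand ratios it recovered 76.3% and 41.4%, and 1.43% of calls were false. Differences as small as most of those of miR-126 would thus often be missed. Libraries were treated as separate mice, as far as the labels say, and otherwise p-values measure technical spread. Alternatives covered scaling, filter, pseudocount, trend, groups in the fit, replicate number, strand rows and each library left out. The tag term, the hairpin fit and the summed 5p rows were chosen after seeing the data.

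The members and lists were chosen with earlier results of these data known. Apart from all 4 rows, the text names the 5 miRNAs with the most constant ratio to miR-126a-3p, and examples from the 4 vascular miRNAs with the smallest p in each bleomycin contrast.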

Additional observations from a re-analysis of the deposited data

How the results depend on the processing

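All 37 miR-126 differences were recomputed under each alternative that applied. With all libraries kept, 219 recomputed values kept direction and side of the threshold, 16 changed sign or became 0, 4 newly passed and 5 no longer passed. The R213G falls of miR-126a-3p and miR-126b-5p kept direction throughout. That of miR-126a-3p no longer passed with quantile normalization (-0.088) or division by the library sum (-0.19), and that of miR-126b-5p after that division (-0.16) or without the intensity trend (-0.37, adjusted p = 0.0521). After division by the library sum, miR-126a-5p (0.36 in R213G, 0.43 in WT) and miR-126b-3p (0.36 and 0.43) passed. Differences that did not pass changed sign after that division for miR-126a-3p (0.043) and miR-126b-5p (0.13) in WT, and for miR-126a-5p (0.0067) and miR-126b-3p (0.0073) between genotypes after bleomycin. With quantile normalization they did so for miR-126a-3p in WT (0.10), for miR-126a-5p between genotypes after bleomycin (0.013) and PBS (-0.076) and in the interaction (0.088), and for miR-126b-3p after PBS (-0.062) and in the interaction (0.025). The difference of miR-126a-3p between genotypes after PBS became 0, since all PBS libraries took the same value. The miR-126a strand ratio became -0.038 (exact) and -0.039 (limma) in WT with quantile normalization, and its R213G call over hairpins was lost (0.24). The log2 ratio of miR-126b-5p to miR-126a-3p then became -0.43 in R213G, -0.13 in WT and -0.15 between genotypes after bleomycin. The cause of these changes was not tested beyond the construction of each scaling.

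Leaving out 1 library at a time gave -0.50 to -0.28 for miR-126a-3p and -0.44 to -0.29 for miR-126b-5p in R213G, and 0.49 to 0.61 for the strand ratio, which passed over hairpins each time (limma adjusted p up to 0.0189). In WT the ranges were -0.13 to 0.039 for miR-126b-5p and 0.15 to 0.38 for miR-126a-5p, which passed without WT PBS replicate 2 (0.38, limma adjusted p = 0.0499). Between genotypes they were -0.15 to 0.00030 for miR-126b-3p after bleomycin, and after PBS -0.055 to 0.18 for miR-126a-5p, -0.089 to 0.16 for miR-126a-3p, -0.052 to 0.18 for miR-126b-3p and -0.062 to 0.051 for the miR-126a strand ratio. For miR-126b-5p over miR-126a-3p they were -0.060 to 0.17 in R213G, -0.013 to 0.17 in WT and -0.086 to 0.14 between genotypes after bleomycin.

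The labels do not say that the replicate numbers pair the libraries. Over 21 same-numbered pairs the correlation of deviations from group means ran from -0.14 to 0.26, and a library was closest to its own number in 9 of 21 checks. With so few libraries this check cannot decide whether they are paired. A replicate block gave -0.41 for miR-126a-3p (adjusted p = 0.0227) and -0.37 for miR-126b-5p (adjusted p = 0.0154) in R213G and changed no call of the 4 rows. The calls over all miRNAs went from 344 to 348 in R213G and from 218 to 215 in WT. For the ratio of miR-126a-5p to miR-126a-3p, the mean difference over same-numbered pairs was 0.56 log2 in R213G and 0.39 log2 in WT. With only 4 and 3 pairs an exact sign-flip test could not pass, whatever the values. Depths are unknown, and 3 or 4 libraries per group limit the precision.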

Other observations

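Rows with nearly equal values were rare in the table. Among the 407 tested miRNAs with a mean above log2 6, only 3 pairs stayed within 0.1 log2 of each other in every library. They were miR-126a-5p with miR-126b-3p (largest gap 0.00753), miR-199a-3p with miR-199b-3p (0.0222), whose RefSeq sequences are the same, and miR-486a-5p with miR-486b-5p (0.0238). The miR-126 pair was the closest of the 3.

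RefSeq holds 11 pairs of mature miRNAs on opposite strands of 1 site for which both were tested. Among them is miR-126a-3p with miR-126b-5p, whose mean levels differed by 8.05 log2. The mean levels of the other pairs differed by between 0.167 and 8.61 log2. The near-equal miR-126a-5p and miR-126b-3p are not among the 11, as no RefSeq mature sequence was matched for miR-126a-5p. The ratio of miR-24-3p to the facing miR-3074-5p had an SD of 0.146 over the 15 libraries, and that of miR-142a-3p to miR-142b an SD of 0.251, beside 0.218 for miR-126a-3p to miR-126b-5p. Whether strand was used in counting was not tested further.

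In the authors' deposited table, miR-126a-3p had a parametric p of 0.0701 and a q-value of 0.212 for R213G bleomycin against R213G PBS, and miR-126b-5p a p of 0.0324 and a q-value of 0.134.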
